A study of Mus musculus with 6 samples.

Results

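Barrier and perivascular solute transporters were examined as a group of 40 named genes in the RNA-seq data of brain mural cells and microvascular fragments. The genes were taken by symbol, as carriers of glucose, amino acids, monocarboxylates, organic anions, metals and lipids, ABC exporters and transcytosis receptors of brain vessels. All 40 were found among the 33460 genes with deposited values, and 39 of them were tested, having reached 1 FPKM in 3 or more libraries. FPKM is the number of fragments mapped to a gene, scaled by the length of its exons and the depth of the library. Only *Lrp2* stayed under this limit.

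The samples were taken at postnatal day 6 from 3 mice that carried both the *Pdgfrb-eGFP* and the *NG2-DsRed* transgene, with 3 libraries per group. In both groups, eGFP was under control of the *Pdgfrb* promoter (line Tg(Pdgfrb-eGFP)JN169Gsat/Mmucd) and DsRed under control of the NG2 promoter, and neither promoter is active in mural cells alone. Each brain was divided sagittally. From one side, cells with eGFP and DsRed were sorted by FACS as mural cells, that is, pericytes and vascular smooth muscle cells. From the other side, microvascular fragments were pulled out with magnetic beads against CD31, a surface protein of endothelial cells, and such fragments hold endothelial cells with the mural cells attached to them. The comparison asked which transporters were higher or lower in the sorted cells than in whole vessel pieces. P-values measure the spread between these 3 libraries per group, and in bulk samples fewer cells of a type and less RNA per cell cannot be told apart.

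Known markers were checked before the transporters. The 12 mural markers included *Pdgfrb* and *Cspg4* (the gene of NG2), whose promoters drove the reporters used for sorting. All 12 were higher in the sorted cells, 6.47 to 12.5-fold. The 12 endothelial markers were still abundant there: their summed FPKM was 1738 to 2238 in the mural cell libraries against 2404 to 2852 in the fragments, and none was at 0 in any library. Their median level in the sorted cells was 64.4% of that in the fragments, with a range from 35.3% (*Ly6c1*) to 129% (*Esam*). Summed markers of perivascular fibroblasts were 513 to 701 in the mural cell libraries against 66.3 to 75.9 in the fragments, and those of microglia 135 to 178 against 1703 to 1986. Most of the fibroblast sum came from *Col1a1*, *Col1a2* and *Col3a1*, and the paper counts *Col1a2* and *Col3a1* among its mural cell-enriched genes. The fibroblast markers *Dcn*, *Lum* and *Islr* were also higher in the sorted cells, at ratios of 7.33, 6.17 and 3.50. *Pdgfra* had a ratio of 1.59, with every mural cell library above every fragment library (limma, adjusted p = 0.0481). *Aldh1a2* had a ratio of 1.16 with overlapping groups. The values rest on approximately 5.44 to 5.96 M fragments on protein-coding genes in the fragment libraries and on 1.03 to 2.36 M in the mural cell libraries.

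Brain capillaries are sealed by tight junctions, so that nutrients, hormones and ions reach the brain mainly through carriers in the endothelial membrane, while ABC exporters return drugs and metabolites to the blood. Large molecules such as transferrin and lipoproteins cross by receptors that are taken up into vesicles. Mural cells and perivascular fibroblasts lie on the outer side of the endothelium and face the solutes that have crossed it.

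Most of the 40 transporters and receptors were somewhat lower in sorted mural cells than in fragments, and few differed by more than 2-fold. A gene was called enriched at a ratio of mean FPKM above 2, and lower at a ratio under 0.5, in both cases with an adjusted p under 0.05 (limma on log2(FPKM + 1), Benjamini-Hochberg adjustment over 14801 genes). *Slc6a20a*, a carrier of proline and other imino acids, and *Slco3a1*, a carrier of organic anions and prostaglandins, were called enriched. The paper already lists both in its catalogue of mural cell-enriched genes, which was made in part from these libraries. *Cd36*, *Slc29a4*, *Slc6a6* and *Slco1a4* were called lower, and 33 genes were not called.

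The 2 enriched genes were 5.13% of the 39 tested, where 6.43% of all tested genes were enriched. The 4 lower genes were 10.3% of the 39, where 10.1% of all tested genes were lower. Both shares were near those of all genes. After quantile normalization, all genes split into 1170 enriched and 1127 lower in place of 952 and 1493. At an adjusted p under 0.05 with any ratio (limma), 3 of the 39 were higher in mural cells (9.34% of all genes) and 12 were lower (13% of all genes). The ratio was under 1 for 31 of the 40 genes, including *Lrp2*, and for 55.2% of all tested genes. The median ratio of the 39 tested genes was 0.815, against 0.943 for all tested genes. In 17 of the 39 genes every mural cell library was below every fragment library (24.5% of all genes), in 3 every mural cell library was above (16.5% of all genes), and in 19 the groups overlapped. The count of 12 was 2 to 5 when 1 fragment library was left out and 7 to 14 when 1 mural cell library was left out, and *Cd36* and *Slc6a6* were among the genes past the threshold in all 6 of these fits. Outside the 12, *Slco1c1*, *Slc3a2* and *Insr* passed as lower without mural cell replicate 1, *Slc35f2* without replicate 2 and *Slc27a1* without replicate 3.

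**Figure D1:**
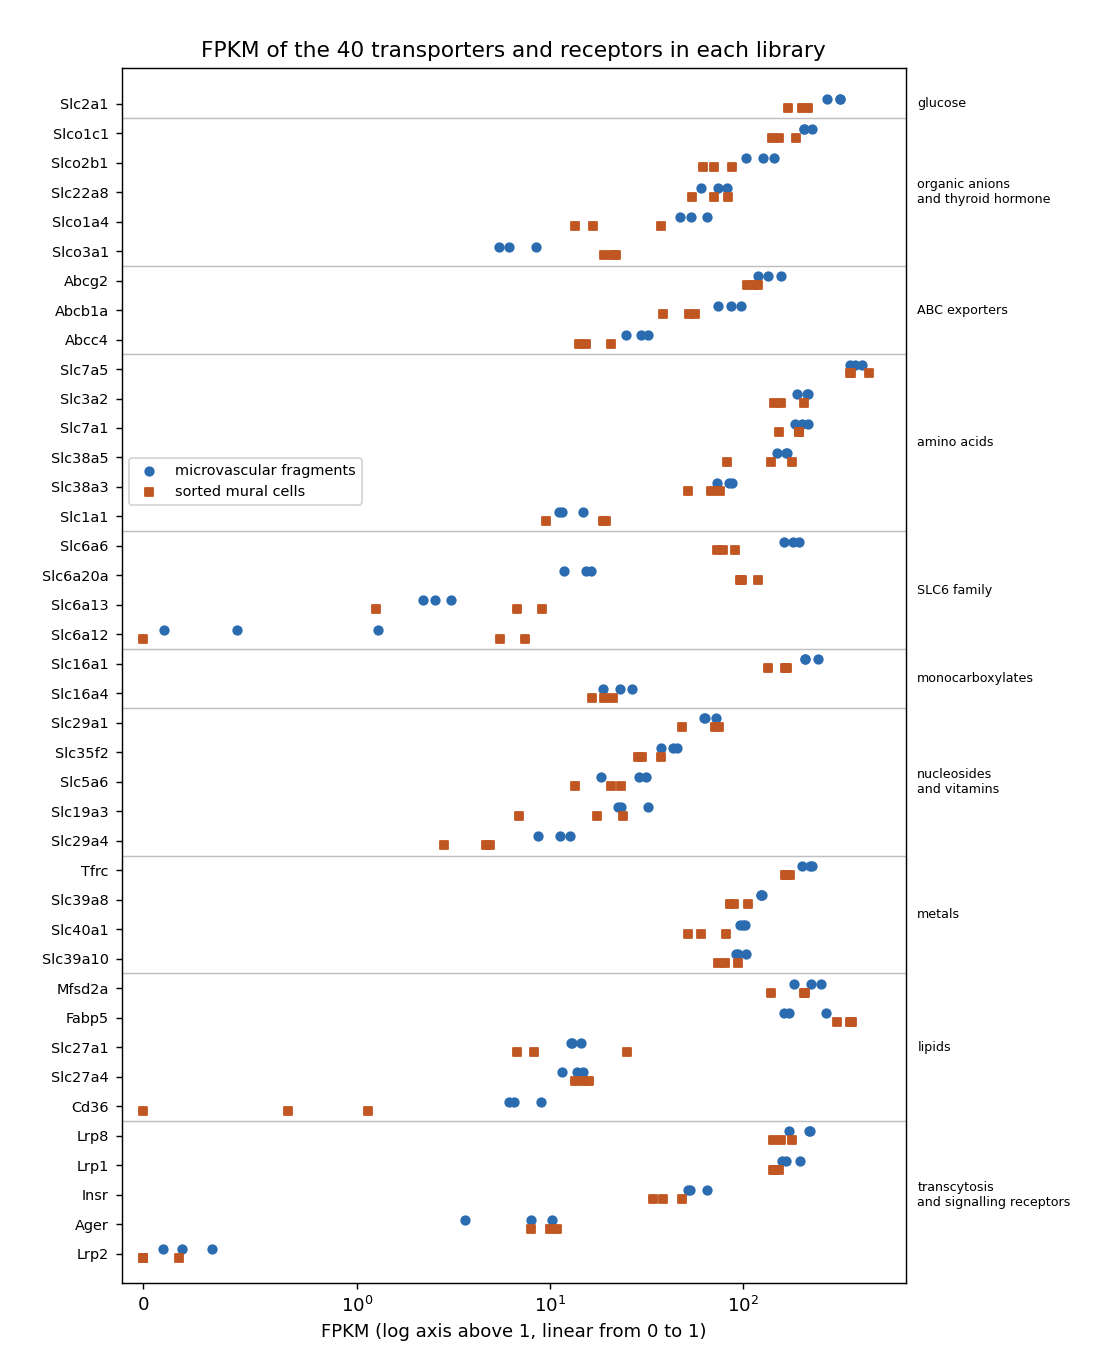
FPKM of the 40 genes in each of the 6 libraries (x axis, logarithmic above 1), ordered by what they carry. Circles are microvascular fragments and squares are sorted mural cells. Squares lie to the right of all circles for *Slc6a20a*, *Slco3a1* and *Fabp5* alone.

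**Figure D2:**
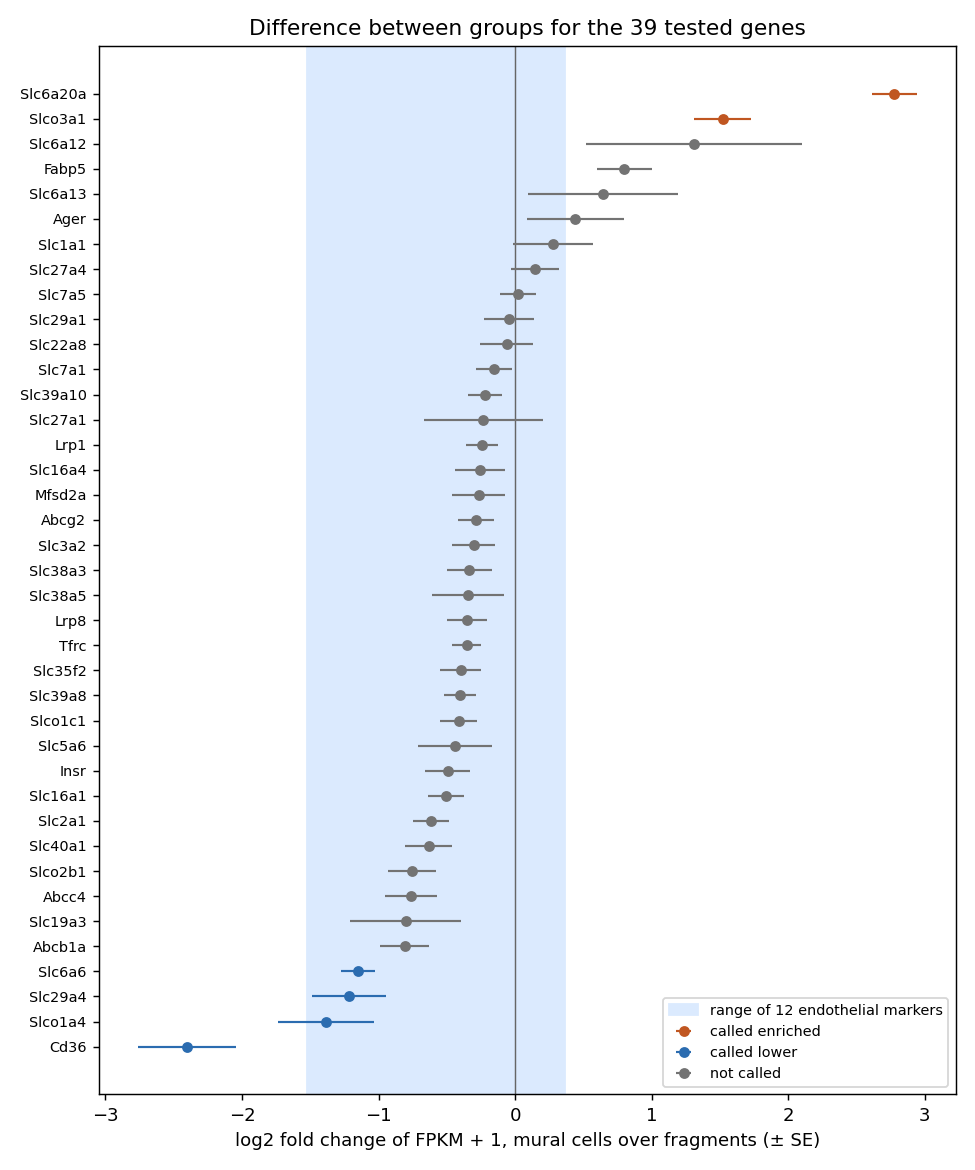
Log2 fold change of FPKM + 1 between sorted mural cells and fragments for the 39 tested genes, with standard errors (limma, 3 samples per group). The shaded band is the range of the log2 fold changes of the 12 endothelial markers, and the called genes stand at the ends of the order, from -2.40 (*Cd36*) to 2.78 (*Slc6a20a*).

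Of the 6 called genes, 4 had an entry in the RefSeq promoter table (build GRCm38.p6), and the sequences of these 4 are shown. Each is the stretch of 250 bases upstream of an annotated start site, placed on NCBIM37 by an exact and unique match and printed 5′ to 3′ on the strand of the gene. Capitals mark GGGCGG (the GC box), TATAAA (the TATA box) and CCGGAA (an ETS core) on either strand. The *Cd36* window belongs to a start site well inside the annotated gene, and the *Slc6a20a* window overlaps the first bases of its annotated gene.
Slc6a20a, chr9:123587951-123588200, minus strand: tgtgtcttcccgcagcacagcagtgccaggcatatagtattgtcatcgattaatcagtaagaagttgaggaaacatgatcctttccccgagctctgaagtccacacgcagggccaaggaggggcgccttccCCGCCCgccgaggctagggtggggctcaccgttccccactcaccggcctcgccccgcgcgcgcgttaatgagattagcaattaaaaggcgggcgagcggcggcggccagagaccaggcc
Slco1a4, chr6:141804742-141804991, minus strand: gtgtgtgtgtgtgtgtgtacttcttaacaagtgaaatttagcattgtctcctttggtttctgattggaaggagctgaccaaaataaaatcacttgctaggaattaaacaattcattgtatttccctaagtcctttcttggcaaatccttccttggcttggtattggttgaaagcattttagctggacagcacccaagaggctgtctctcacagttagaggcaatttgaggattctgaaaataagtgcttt
Slc29a4, chr5:143177805-143178054, plus strand: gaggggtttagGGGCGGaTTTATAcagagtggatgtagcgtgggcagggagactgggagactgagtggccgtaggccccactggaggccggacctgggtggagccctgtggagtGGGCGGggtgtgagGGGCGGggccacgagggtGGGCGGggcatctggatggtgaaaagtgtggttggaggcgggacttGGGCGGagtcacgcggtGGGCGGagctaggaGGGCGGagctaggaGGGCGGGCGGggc
Cd36, chr5:17341715-17341964, minus strand: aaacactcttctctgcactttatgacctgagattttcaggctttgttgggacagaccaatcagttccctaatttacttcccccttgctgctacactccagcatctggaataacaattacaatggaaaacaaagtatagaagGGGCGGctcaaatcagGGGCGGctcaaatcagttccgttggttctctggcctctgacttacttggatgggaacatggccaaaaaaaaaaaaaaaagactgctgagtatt
The letters GGGCGG were found 9 times in the window of *Slc29a4*, counting overlapping matches, 2 times in that of *Cd36*, 1 time in that of *Slc6a20a* and 0 times in that of *Slco1a4*. The *Slc29a4* window also held TATAAA, 1 time, and none of the windows held CCGGAA. The E-box letters CANNTG, which are not capitalised, were found 1 time each in the windows of *Cd36* and *Slc29a4*, 2 times in that of *Slco1a4* and 0 times in that of *Slc6a20a*. GC content was 61.2% for *Slc6a20a* and 68.8% for *Slc29a4*, and 43.2% for *Cd36* and 39.2% for *Slco1a4*. Over all promoter entries for 33 of the 40 genes, GGGCGG was present in 45.0% of 60 windows, against 32.7% of 32851 windows of the whole table. The corresponding shares were 5.0% and 12.4% for TATAAA, 8.33% and 12% for CCGGAA, and 71.7% and 66.2% for CANNTG.

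*Slc2a1*, the glucose transporter of the blood-brain barrier (BBB), was lower in mural cells by less than 2-fold. It lies on chromosome 4 from 118781316 to 118809935. Its FPKM was 316, 317 and 271 in the fragments and 217, 202 and 171 in mural cells. All mural cell libraries were below all fragment libraries, and the transcript remained abundant in each of them. The ratio was 0.652 and the log2 fold change -0.62 (standard error 0.13, limma, adjusted p = 0.0151). This ratio lay close to the endothelial median of 0.644. Without fragment replicate 1 or 2 the adjusted p was 0.0694 or 0.0637 (limma).

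Carriers of organic anions and thyroid hormone differed among themselves in direction. *Slco3a1* rose in mural cells, *Slco1a4* and *Slco2b1* fell, and *Slco1c1* and *Slc22a8* did not pass the test. The 4 *Slco* genes shared 51.7 to 56.6% of the aligned bases of their coding sequences, and *Slco1c1* and *Slco1a4* lie 235720 bases apart on chromosome 6.

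*Slco3a1* (chromosome 7, 81420305 to 81699666) had an FPKM of 6.14, 8.40 and 5.42 in the fragments. In mural cells the values were 19.0, 21.9 and 21.2. The groups did not overlap, and the mural cell libraries differed little among themselves. The ratio was 3.11 and the log2 fold change 1.52 (standard error 0.21, limma, adjusted p = 0.00217). *Slco1a4*, a carrier of organic anions on both faces of brain endothelium, had an FPKM of 65.2, 47.1 and 54.0 in the fragments and of 37.4, 13.5 and 16.7 in mural cells. Mural cell replicate 1 was the highest of its group by far. The ratio was 0.406 and the log2 fold change -1.39 (standard error 0.35, limma, adjusted p = 0.0284). This call was lost when any library other than mural cell replicate 1 was left out, with adjusted p-values (limma) of 0.104, 0.0632 and 0.0913 without fragment replicates 1, 2 and 3 and of 0.060 and 0.0718 without mural cell replicates 2 and 3.

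*Slco2b1*, a further organic anion carrier, fell from 104, 127 and 145 FPKM in the fragments to 87.6, 62.3 and 70.9 in mural cells, a ratio of 0.589 (limma, adjusted p = 0.0199). Without fragment replicate 2 or 3 the adjusted p was 0.0743 or 0.0815 (limma). *Slco1c1*, which carries thyroxine, had an FPKM of 227, 208 and 207 in the fragments and 189, 153 and 142 in mural cells. Its groups did not overlap, yet its adjusted p was 0.0643 (limma) at a ratio of 0.754. After scaling to summed FPKM of protein-coding genes the adjusted p was 0.0427 (limma). *Slc22a8*, a further transporter of organic anions, had a ratio of 0.964, with 54.3 to 83.9 FPKM in mural cells and 60.3 to 82.4 in the fragments.

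Of the 3 ABC exporters, *Abcb1a* and *Abcc4* fell in mural cells and *Abcg2* did not pass the test. *Abcb1a*, which encodes P-glycoprotein, had an FPKM of 86.5, 97.8 and 74.4 in the fragments and of 56.7, 52.1 and 38.5 in mural cells. The ratio was 0.569 and the log2 fold change -0.81 (standard error 0.18, limma, adjusted p = 0.0166). Without fragment replicate 1 or 2 its adjusted p was 0.0674 or 0.0726 (limma). Its close paralog *Abcb1b* could share reads with it, which makes both values uncertain. *Abcb1b* stood at 9.04, 6.74 and 9.29 FPKM in the fragments and 3.40, 0.648 and 0.306 in mural cells. *Abcc4*, an exporter of organic anions and nucleotides, fell to a ratio of 0.579 (limma, adjusted p = 0.0261), from 24.9 to 32.3 FPKM in the fragments to 14.2 to 20.6 in mural cells. It stayed past the threshold in 1 of the 6 fits that left out 1 library, the one without mural cell replicate 1, and its adjusted p was 0.0559 to 0.116 (limma) in the others. *Abcg2*, which encodes the breast cancer resistance protein, was the most abundant of the 3, at 138 ± 19.2 (SD, n = 3) in the fragments and 112 ± 7.19 (SD, n = 3) in mural cells. Its groups touched without overlapping (119.7 against 118.9 FPKM at the nearest), and its ratio was 0.815 (limma, adjusted p = 0.171).

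The *Slc6* carriers of amino acids and their derivatives differed in direction. *Slc6a20a* rose, *Slc6a6* fell, and the neighbouring genes *Slc6a13* and *Slc6a12* did not pass the test. In coding sequence, *Slc6a12* and *Slc6a13* shared 72.5% of aligned bases, whereas *Slc6a20a* shared 54.1 to 58.0% with the other members.

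*Slc6a20a* (chromosome 9, 123545240 to 123588003) had an FPKM of 16.3, 15.4 and 11.8 in the fragments. In mural cells it had 119, 98.4 and 96.8. The lowest mural cell library was thus far above the highest fragment library. The ratio was 7.22 and the log2 fold change 2.78 (standard error 0.16, limma, adjusted p = 9.49e-05). Leaving out each library in turn gave ratios from 6.60 to 7.72. This ratio fell inside the range of the 12 mural markers (6.47 to 12.5). The low end of that range is *Cspg4*, whose promoter drove a reporter used for sorting. The other mural markers started at 7.38 (*Rgs5*), above the ratio of *Slc6a20a*. Of the 8 fibroblast markers, 6 were enriched as well, with ratios from 3.50 (*Islr*) to 12.9 (*Col1a1*), and none of the 8 was at 0. *Pdgfra* was higher at a ratio of 1.59 (limma, adjusted p = 0.0481), under the 2-fold limit of a call. *Aldh1a2* did not pass the test, at a ratio of 1.16. The part of fibroblasts in the *Slc6a20a* result was not tested. The related *Slc6a20b* was listed at 0.256 to 1.13 FPKM over all libraries and was not tested.

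*Slc6a6* (chromosome 6, 91634061 to 91709057), the taurine transporter, had an FPKM of 195, 181 and 164 in the fragments and 90.3, 78.3 and 73.1 in mural cells. The groups were well separated. The ratio was 0.448 and the log2 fold change -1.15 (standard error 0.13, limma, adjusted p = 8.29e-04). It ranked 11 among the 40 genes by mean FPKM in the fragments and 17 in mural cells, and its values rest on 344 to 955 fragments in the mural cell libraries. The ratio was inside the range of the endothelial markers, below 11 of the 12.

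*Slc6a13*, a GABA transporter, and *Slc6a12*, a carrier of betaine and GABA, lie next to each other on chromosome 6 with a gap of 5343 bases. *Slc6a13* had an FPKM of 2.2, 2.51 and 3.06 in the fragments and of 6.69, 9.07 and 1.25 in mural cells. *Slc6a12* had 1.28, 0.0967 and 0.437 in the fragments and 7.41, 5.51 and 0 in mural cells. In both genes, mural cell replicates 1 and 2 were above all fragment libraries and replicate 3 was below all of them. These are low values, resting on approximately 24, 14 and 2 fragments for *Slc6a13* and on 32, 10 and 0 for *Slc6a12* in the mural cell libraries. A count of 0 in replicate 3 allows up to 3 fragments, or 1.56 FPKM, as far as counting error goes. Over all libraries the ratios were 2.19 for *Slc6a13* (limma, adjusted p = 0.454) and 7.11 for *Slc6a12* (limma, adjusted p = 0.287). Without mural cell replicate 3 both were called enriched, at ratios of 3.04 and 10.7 (limma, adjusted p = 0.0199 and 0.0102). The summed fibroblast markers in mural cell replicate 3 were 629, between the 513 of replicate 1 and the 701 of replicate 2, and the summed mural markers there were 4027, against 3950 and 5025. Single fibroblast markers differed in their order, with *Dcn* highest in replicate 3 (38.7 FPKM) and *Col1a2* highest in replicate 2 (256 FPKM). The cause of the low values of *Slc6a12* and *Slc6a13* in replicate 3 was not tested.

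**Figure D3:**
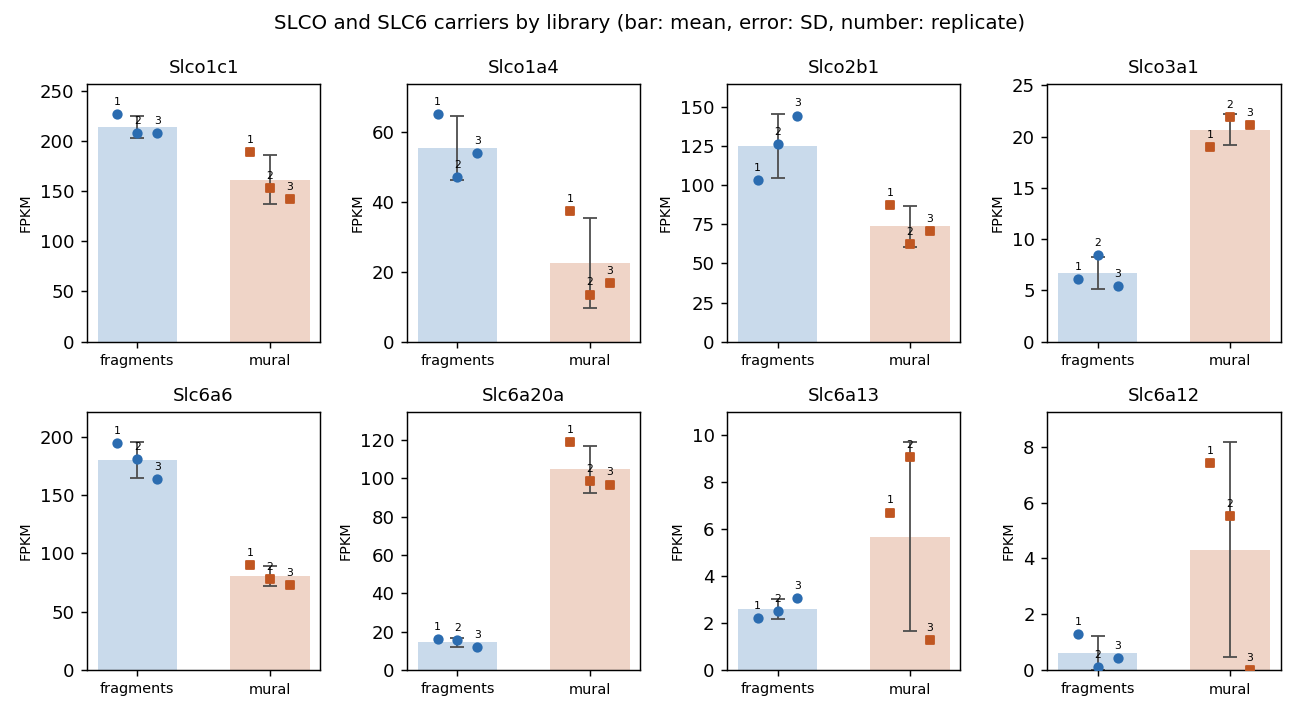
FPKM of the 4 *Slco* and 4 *Slc6* genes by library, with bars for the mean of each group, error bars for the SD (n = 3) and the replicate number beside each point. *Slco3a1* and *Slc6a20a* are high in all 3 mural cell libraries, whereas *Slc6a12* and *Slc6a13* are high in mural cell replicates 1 and 2 and at 0 and 1.25 FPKM in replicate 3.

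Amino acid carriers outside this family did not differ past the test. The groups overlapped in all 6, and 0 had an adjusted or unadjusted p under 0.05 (limma). *Slc7a5*, the light chain of the carrier for large neutral amino acids, had the highest mean of the 40 genes in both groups. Its FPKM was 413, 381 and 359 in the fragments and 451, 359 and 365 in mural cells. The log2 fold change was 0.02 (limma, adjusted p = 0.931, standard error 0.13). *Slc3a2*, the heavy chain that pairs with it, had 215, 190 and 217 in the fragments and 208, 144 and 157 in mural cells, a ratio of 0.818. Only mural cell replicate 1 of *Slc3a2* reached the range of the fragments. *Slc7a1*, a carrier of arginine and lysine, had a ratio of 0.902.

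*Slc38a5* and *Slc38a3* transport glutamine. *Slc38a5* had an FPKM of 167, 150 and 169 in the fragments and of 179, 139 and 82.3 in mural cells, so that its mural cell libraries lay on both sides of the fragments. *Slc38a3* had a ratio of 0.798, with 52.0 to 76.0 FPKM in mural cells and 73.2 to 87.7 in the fragments. *Slc1a1*, a carrier of glutamate, aspartate and cysteine, had a ratio of 1.28 on values of 9.48, 18.9 and 19.5 in mural cells and 11.2, 14.9 and 11.4 in the fragments (limma, adjusted p = 0.553).

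Of the monocarboxylate carriers, *Slc16a1* fell and *Slc16a4* did not pass the test. *Slc16a1*, which carries lactate and ketone bodies, had an FPKM of 208, 244 and 210 in the fragments and 169, 164 and 134 in mural cells. The ratio was 0.704 and the log2 fold change -0.51 (standard error 0.13, limma, adjusted p = 0.0322). The adjusted p was 0.0846, 0.126 and 0.078 (limma) without fragment replicates 1, 2 and 3, 0.0736 without mural cell replicate 3 and 0.0856 in a fit without an intensity trend. *Slc16a4* was less abundant, with 18.8 to 26.6 FPKM in the fragments and 16.4 to 21.1 in mural cells.

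Carriers of nucleosides and vitamins all had ratios under 1, and 1 of the 5 passed the test. *Slc29a4* (chromosome 5, 143178055 to 143198443), a carrier of monoamines and adenosine, had an FPKM of 12.7, 11.2 and 8.63 in the fragments and of 2.83, 4.67 and 4.90 in mural cells. The groups did not overlap. The ratio was 0.381 and the log2 fold change -1.22 (standard error 0.27, limma, adjusted p = 0.0174). The mural cell values rest on 13, 9 and 10 fragments, and the pooled counts gave a ratio between 0.233 and 0.496 (95% exact interval, counting error only). The call was lost without fragment replicate 1 or 2 (limma, adjusted p = 0.0869 and 0.0750). Markers of the choroid plexus epithelium mostly moved the same way, with 4 of 6 called lower in mural cells. Their summed FPKM was 206 to 267 against 668 to 1426 in the fragments, and only *Otx2* was at 0 in a library. Most of the sum came from *Ttr*, at 195, 244 and 208 FPKM in mural cells and 1358, 872 and 638 in the fragments. *Kcnj13* had a ratio of 0.948, and its value in mural cell replicate 2 (18.7 FPKM) stood above all fragment libraries. The part of choroid plexus epithelium in the *Slc29a4* value was not tested.

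*Slc29a1*, a nucleoside transporter, stood at 62.5, 72.0 and 63.6 FPKM in the fragments and 75.2, 71.8 and 48.2 in mural cells, a ratio of 0.985. *Slc35f2* had 37.6 to 45.6 FPKM in the fragments and 28.4 to 37.4 in mural cells, without overlap but with an adjusted p of 0.109 (limma). *Slc5a6*, which carries biotin and pantothenate, and *Slc19a3*, which carries thiamine, overlapped between the groups at ratios of 0.726 and 0.616. For *Slc19a3*, the mural cell values were 17.4, 23.7 and 6.89, with replicate 3 the lowest.

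Of the 4 genes of metal transport, *Tfrc*, *Slc40a1* and *Slc39a8* were lower in mural cells by less than 2-fold and *Slc39a10* did not pass the test. *Tfrc*, the transferrin receptor, had an FPKM of 222, 229 and 201 in the fragments and of 167, 176 and 166 in mural cells. The ratio was 0.780 (limma, adjusted p = 0.0466). *Slc40a1*, which encodes the iron exporter ferroportin, had 99.4, 96.4 and 102 in the fragments and 81.9, 60.4 and 51.9 in mural cells, a ratio of 0.652 (limma, adjusted p = 0.0363). The fragment libraries of both genes were close together, and in both the groups did not overlap. *Slc39a8*, a carrier of zinc and manganese, had a ratio of 0.756 (limma, adjusted p = 0.0445), and *Slc39a10*, a zinc carrier, had a ratio of 0.858 with overlapping groups (limma, adjusted p = 0.252). These 3 genes lost their place past the threshold in most fits that left out 1 library. *Tfrc* was above the threshold in all 6 fits that left out 1 library, and *Slc40a1* and *Slc39a8* were above it in all of them but the one without mural cell replicate 1. The adjusted p-values in those fits were 0.0701 to 0.175 for *Tfrc*, 0.0725 to 0.123 for *Slc40a1* and 0.0944 to 0.151 for *Slc39a8* (limma).

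Genes of lipid uptake went both ways. *Cd36* (chromosome 5, 17287508 to 17394777), a scavenger receptor that binds fatty acids and lipoproteins, had an FPKM of 6.09, 6.47 and 8.99 in the fragments and 0.675, 0 and 1.14 in mural cells. The ratio of 0.0842 was the lowest of the 40, and the log2 fold change was -2.40 (standard error 0.36, limma, adjusted p = 0.00316). The mural cell values rest on approximately 4, 0 and 3 fragments, and the pooled counts gave a ratio between 0.0348 and 0.182 (95% exact interval, counting error only). A count of 0 allows up to 1.2 FPKM in mural cell replicate 2.

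Among the 40 genes, only *Cd36* had a ratio within the range of the microglia and perivascular macrophage markers (0.0602 to 0.237). All 8 microglia and all 6 macrophage markers were lower in mural cells, with the macrophage sum at 10.1 to 26.3 FPKM against 132 to 221 in the fragments, and *Lyve1* and *Pf4* each at 0 in 1 mural cell library. Their part in the *Cd36* value was not tested.

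*Fabp5*, a fatty acid binding protein of the cytosol, rose in mural cells by less than 2-fold. Its FPKM was 174, 164 and 268 in the fragments and 369, 307 and 358 in mural cells. Fragment replicate 3 stood above the other two, and still below all mural cell libraries. The ratio was 1.71 and the log2 fold change 0.80 (standard error 0.20, limma, adjusted p = 0.0266). Without fragment replicate 3 the ratio was 2.04 (limma, adjusted p = 0.00485). The adjusted p was between 0.0656 and 0.102 (limma) without fragment replicate 1 or 2 or mural cell replicate 1 or 3, and 0.0560 in a fit without an intensity trend.

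*Mfsd2a*, which carries lysophosphatidylcholine with docosahexaenoic acid into the brain, had 224, 254 and 184 FPKM in the fragments and 209, 206 and 140 in mural cells. It overlapped between the groups at a ratio of 0.837. The fatty acid transport proteins *Slc27a1* and *Slc27a4* had ratios of 0.990 and 1.11. *Slc27a1* stood at 14.5, 12.8 and 13 in the fragments and 8.26, 6.73 and 24.9 in mural cells, so that replicate 3 stood above and replicates 1 and 2 below all fragment libraries. Without mural cell replicate 3 its ratio was 0.557 (limma, adjusted p = 0.0378). In the same library, mural cell replicate 3, the summed astrocyte markers were 403, against 170 and 144 in mural cell replicates 1 and 2 and 205 to 298 in the fragments. None of the 8 astrocyte markers was at 0, and their part in the *Slc27a1* value was not tested.

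The transferrin receptor *Tfrc*, lower at an adjusted p of 0.0466 (limma), was counted with the metals. Of the 4 other tested receptors of transcytosis and signalling, 0 had an adjusted p under 0.05 and 2, *Lrp8* and *Insr*, had an unadjusted p under 0.05 (limma). *Lrp1* and *Lrp8*, which take up lipoproteins and other ligands, had mean FPKM values of 174 ± 20.1 and 205 ± 27.5 (SD, n = 3) in the fragments and of 146 ± 5.61 and 160 ± 18.3 (SD, n = 3) in mural cells. *Insr*, the insulin receptor, had 52.0, 65.3 and 52.9 in the fragments and 48.0, 34.2 and 38.4 in mural cells. Its groups did not overlap, and the adjusted p was 0.0732 (limma) at a ratio of 0.708. *Ager*, the receptor for advanced glycation end products, had low values of 3.61 to 10.2 in the fragments and 7.91 to 10.8 in mural cells. *Lrp2*, or megalin, was listed at 0.322, 0.0931 and 0.183 in the fragments and at 0, 0 and 0.166 in mural cells, which is 0 to 22 fragments per library. The pooled counts, 2 fragments in mural cells and 41 in the fragment libraries, gave a ratio between 0.0233 and 0.764 (95% exact interval, counting error only). The groups overlapped, and *Lrp2* was too low to enter the fit.

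The ratios of the 40 genes were set beside those of the markers. The range of the 12 endothelial markers (0.353 to 1.29) was wide and held 65.5% of all tested genes. It held 32 of the 40 (80.0%), with 6 above it (*Slc6a20a*, *Slc6a12*, *Slco3a1*, *Slc6a13*, *Fabp5* and *Ager*) and 2 below it (*Cd36* and *Lrp2*). The range of the 12 mural markers held 2, *Slc6a20a* and *Slc6a12* (1.68% of all tested genes), and that of the microglia and macrophage markers held 1 (4.23% of all tested genes). Without *Cspg4*, a gene tied to the sort, the mural range started at 7.38 (*Rgs5*), above the ratios of *Slc6a20a* and *Slc6a12*. The median ratio of the 39 tested genes, 0.815, was above the endothelial median of 0.644. Of the marker lists not yet named, oligodendrocyte progenitor, neuron and erythroid markers stood at median levels of 141%, 59.7% and 90.7% of the fragments, and the groups overlapped for every tested gene of these lists but *Syt1*.

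**Figure D4:**
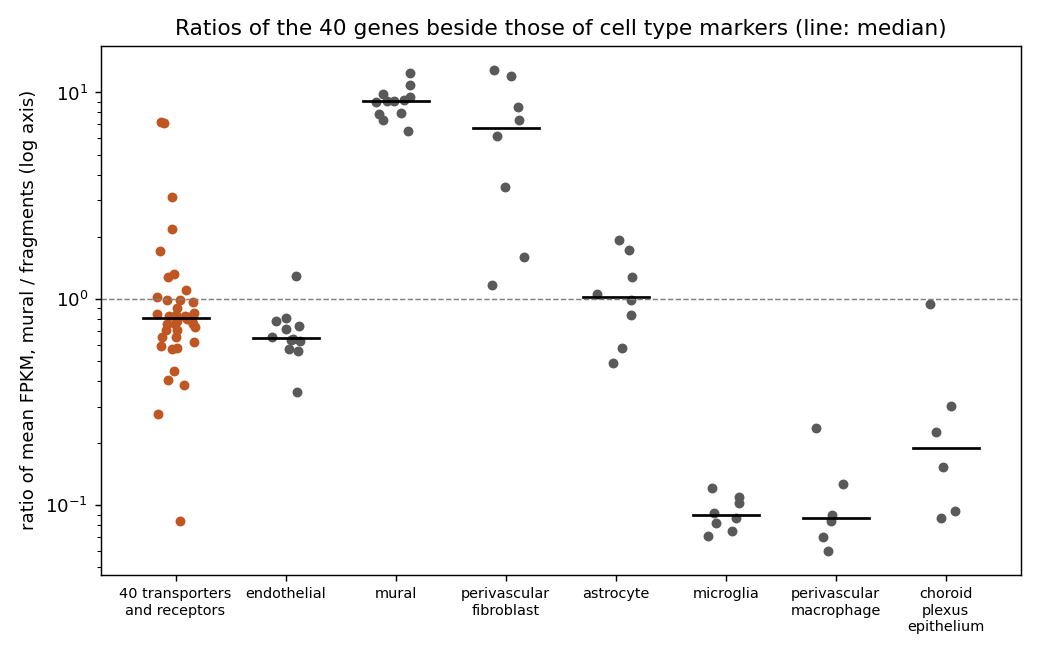
Ratio of mean FPKM, sorted mural cells over fragments (logarithmic axis), for the 40 genes and for the genes of 7 marker lists, with a line at each median. The median of the 39 tested genes is 0.815, against 0.644 for the endothelial, 9.10 for the mural and 0.0894 for the microglia markers. The line drawn for the 40 genes also counts *Lrp2* and lies slightly lower.

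Since endothelial RNA was present in both groups, the values were also set relative to the endothelial markers. This scaling was chosen after seeing the data and moved the median log2 fold change of all tested genes from -0.12 to 0.41. Of the 30 genes with a ratio under 1 among 38 with values in both scalings, 20 had a ratio above 1 per endothelial marker and 10 stayed under 1. The ratio of *Slc2a1* became 0.980, that of *Abcb1a* 0.851 and that of *Slco1c1* 1.12. With this scaling *Slc6a20a*, *Slco3a1* and *Fabp5* were called enriched, at ratios of 10.9, 4.78 and 2.52 (limma), where 16.0% of all genes were enriched. *Cd36* alone was called lower, at 0.131 (limma), where 6.28% of all genes were lower. At an adjusted p under 0.05 with any ratio (limma), 6 of the 38 genes were higher (24.4% of all genes) and 2 lower (6.66%). The 6 included *Slc7a5*, *Slc29a1* and *Slc22a8*, at ratios of 1.53, 1.46 and 1.44 (limma, adjusted p = 0.0262, 0.0461 and 0.0357). *Slc6a6* kept an adjusted p of 0.0222 (limma) at a ratio of 0.673, and *Slco1a4* and *Slc29a4* were at 0.587 and 0.598 (limma, adjusted p = 0.0751 and 0.138). The direction of many small differences thus depends on the reference. Of the 12 genes lower at an adjusted p under 0.05 as deposited (limma), *Slc16a1*, *Slc39a8* and *Tfrc* turned, to 1.05, 1.13 and 1.18. The others stayed under 1, and of them only *Cd36* and *Slc6a6* kept an adjusted p under 0.05 (limma). *Slc6a20a*, *Slco3a1* and *Fabp5* did not turn.

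The wider transporter families gave a view of what the 40 genes leave out. Of 386 other genes with *Slc*, *Slco* or *Abc* symbols, 247 were tested, 19 of them were enriched (7.69%) and 44 were lower (17.8%), with a median ratio of 0.905. The highest ratios among the enriched genes without overlap were those of *Slc2a4*, the insulin-responsive glucose transporter (18.9), *Slc7a2*, a cationic amino acid carrier (8.70), *Slc2a10* (7.97), *Slc16a12* (7.92), *Abcc9*, a subunit of the KATP channel and one of the mural markers (7.90), and *Slc38a11* (7.56). *Slc2a4* had 12.8, 25.3 and 16.5 FPKM in mural cells and 0.850, 1.12 and 0.925 in the fragments. It thus stood opposite to *Slc2a1* of the same family, which was lower in mural cells, although at 18.2 FPKM on average it stayed far under the 197 of *Slc2a1* there. The symbols also took in *Slc9a3r1*, named here after its values were seen, which encodes a scaffold protein and not a carrier and was enriched at a ratio of 2.73. At the other end, *Slc2a5*, *Slc7a15* and *Slc18a1* were listed at 0 in all mural cell libraries. *Slc15a3* had 70.1, 46.5 and 61.1 FPKM in the fragments and 1.71, 0 and 1.78 in mural cells. *Slc16a10* and *Abcg3* were listed at 0 in 1 and 2 mural cell libraries, with at most 0.517 and 0.859 FPKM there. *Slc2a5*, a fructose transporter, had 11.9, 11.7 and 14.4 FPKM in the fragments, where microglia markers were also high, and the part of microglia in it was not tested.

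**Figure D5:**
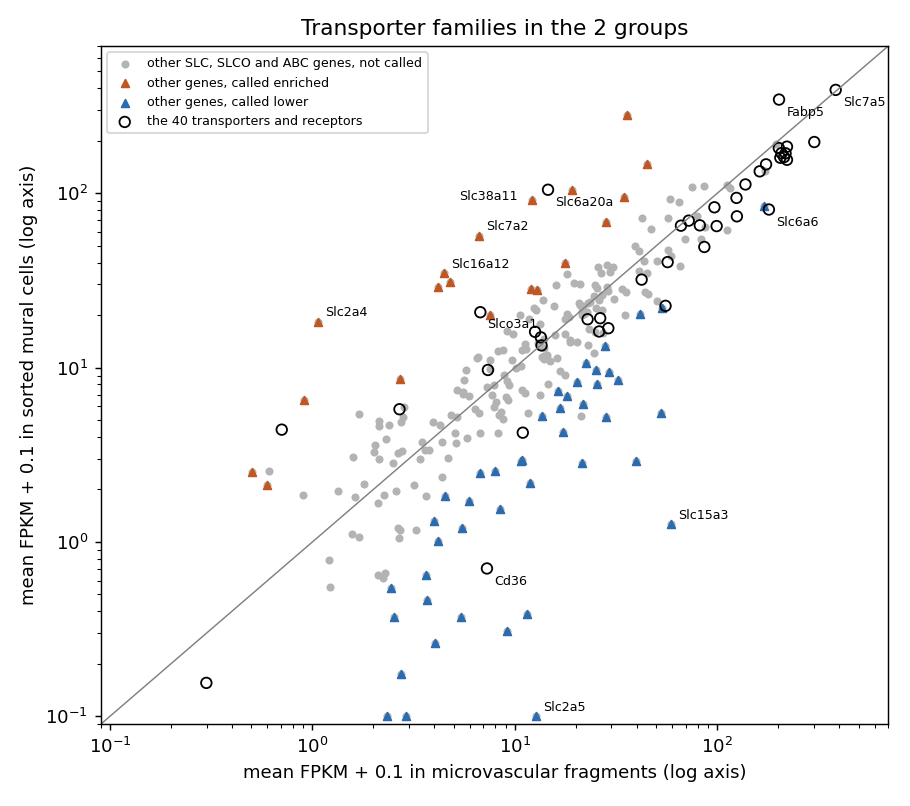
Mean FPKM + 0.1 in microvascular fragments (x axis) and sorted mural cells (y axis), both logarithmic, for the 40 genes (open circles) and the 247 other tested *Slc*, *Slco* and *Abc* genes, with 19 called enriched and 44 called lower drawn as triangles. Most open circles lie just under the diagonal, which marks equal values.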

How the data were processed

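RNA-seq was performed on 3 libraries of sorted mural cells and 3 of microvascular fragments. The deposited values are FPKM, 1 per Ensembl gene and library, which the authors made from read pairs aligned to NCBIM37 after removal of duplicates. The submitters' processing notes name TopHat2 2.0.4, Picard 1.92 and Cufflinks 2.2.1. The scaling between libraries is not given in the sources used here.

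The 9 identifiers listed more than once had identical values and were counted once, and 33116 of 33460 genes matched a symbol of the GENCODE annotation of NCBIM37. The test was limma 3.58.1 (R 4.3.3) on log2(FPKM + 1), without pairing and with a trend on intensity, with Benjamini-Hochberg adjustment over 14801 genes that reached 1 FPKM in 3 or more libraries. Log2 fold changes are on that scale and understate changes of low genes, whereas ratios are of mean FPKM. As FPKM are not counts, no count test was used. The fit was also run on simulated data with 1 fixed spread for all genes and both groups. That run does not show how the fit does at the spread of these libraries.

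The FPKM that 1 fragment is worth was read in each library from the steps between low values of single-transcript genes, where 97.2 to 98.2% of values up to 20 fragments were whole multiples within 0.05. Fragment numbers of genes with several transcripts are approximate. Intervals cover counting error only.

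The 40 genes and all marker lists were chosen with earlier results of these data known. The other genes named were the 6 highest and 6 lowest ratios among the called *Slc*, *Slco* and *Abc* genes without overlap, and *Abcb1b*, *Slc6a20b* and *Slc9a3r1* were named after their values were seen. Promoters came from RefSeq and coding sequences from GENCODE (longest per gene, global alignment with Biopython 1.88). No protein sequences were used. Python 3.11.15, pandas 2.3.3, NumPy 2.4.6, SciPy 1.17.1 and matplotlib 3.10.9 served for the remainder. In all, 13 planned settings, 6 fits without 1 library and 1 added scaling were tried.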

Additional observations from a re-analysis of the deposited data

How the results depend on the processing

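*Slc6a20a* and *Slco3a1* were called enriched, and *Cd36* was called lower, under all 20 alternatives tried, and *Slc6a6* under all but the scaling to endothelial markers. The count of enriched genes was 2 to 4 when 1 library was left out, with 4 without mural cell replicate 3, where *Slc6a12* and *Slc6a13* were added. The 4 lower genes became 2 at an adjusted p under 0.01 (*Cd36* and *Slc6a6*), 9 at a ratio of 1.5 in place of 2, 1 after scaling to endothelial markers and 2 to 4 without 1 library, with 2 without fragment replicate 1 or 2. Of the other transporter genes, 18 in place of 44 were lower at an adjusted p under 0.01, and 14 to 45 without 1 library, with 17, 17 and 14 without fragment replicates 1, 2 and 3. The number of enriched ones was 15 to 24 over all planned settings. Over all genes, 667 in place of 952 were enriched and 845 in place of 1493 were lower at an adjusted p under 0.01, and 607 to 702 were lower without 1 fragment library.

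Quantile normalization moved the median log2 fold change of all genes from -0.12 to -0.01, and the ratio of *Slc6a12* became 15.4 (adjusted p = 0.194, limma). Of all genes, 1170 were then enriched and 1127 lower. Genes with ratios near 1 changed sides. The ratio of *Slc29a1* was 1.008 and that of *Slc27a1* 1.013 after median-ratio scaling, that of *Slc27a1* was 1.06 after quantile normalization, and that of *Slc7a5* was 0.987 after scaling to summed coding FPKM. Without 1 library, the ratios ran from 0.557 to 1.23 for *Slc27a1*, from 0.865 to 1.07 for *Slc22a8*, from 0.909 to 1.11 for *Slc29a1* and from 0.941 to 1.06 for *Slc7a5*. Of these, *Slc27a1* passed the test as lower in 1 fit, without mural cell replicate 3 (adjusted p = 0.0378, limma). The cause was not tested. Of 736 ratios of single genes under these alternatives, without the scaling to endothelial markers, 705 kept their direction and their side of the thresholds. Under the scaling to endothelial markers, 20 of the 30 genes with a ratio under 1 moved above 1.

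The labels number the libraries 1 to 3 in both groups without stating that a number marks a brain. Deviations of libraries with the same number correlated across genes with r = 0.0818, 0.0203 and 0.0454, so that the pairing is not shown by the data, although each library correlated best with its own number. With the replicate number as a block, 2 genes were enriched and 4 lower, the same genes as without it. Of the 12 genes that were lower at any ratio, 10 stayed past the threshold, without *Tfrc* and *Slc39a8* (adjusted p = 0.0827 and 0.0798, limma). Of the other transporter genes, 16 were enriched and 38 lower, and over all genes 900 were enriched and 1344 lower.

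The low depth of the mural cell libraries limits genes with few fragments there, chiefly *Cd36*, *Slc29a4*, *Slc6a12*, *Slc6a13* and *Lrp2*.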
